A study of Homo sapiens with 2 samples.

Results

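Methylation was examined at the potassium channel genes of SH-SY5Y, an established neuroblastoma line of human origin whose cells resemble sympathetic neurons. The genes were the autosomal symbols that begin with KCN in the promoter or gene annotation of the deposited table, leaving out antisense and other listed non-coding transcripts. They numbered 96 of the 29588 gene symbols in the table, and 15477 of the 2523693 CpGs that both libraries covered with at least 10 reads lay in them. A promoter or gene body counted as measured with 5 or more such CpGs, which left 90 promoters and 94 gene bodies, with 88 genes measured in both. The promoters of KCNC2, KCNH6, KCNJ13, KCNJ14, KCNMB3P1 and KCNRG and the gene bodies of KCNA3 and KCNK18 had fewer. A further 4 of the symbols name no channel subunit of their own: KCNK4-TEX40 is a readthrough transcript, KCNIP1-OT1 an overlapping transcript, KCNMB3P1 a pseudogene and KCNRG a regulator gene.

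The study compared cells exposed to Mdivi-1 with control cells exposed to DMSO, the solvent. Mdivi-1 is a small molecule used as a blocker of mitochondrial fission, and the labels used here give neither its dose nor the time of exposure. Genomic DNA was enriched by methyl capture, converted with bisulfite and sequenced, with 1 library per group and 2 libraries in all. No difference below therefore has a replicate check, and the errors given are those of read counting alone: they leave out differences between cultures, and copies made by PCR are counted as separate reads. The CpGs of the potassium channel genes had a mean coverage of 47.1 reads in the Mdivi-1 library and 38.5 reads in the control library, close to the 49.1 and 39.7 reads over all CpGs. Their mean methylation was 42.2% in the Mdivi-1 library and 41.6% in the control library, a difference of 0.596 percentage points, beside 43.1% and 42.6% over all CpGs, a difference of 0.460 points.

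Potassium channels let potassium ions leave or enter the cell along their gradient and so set the resting membrane potential, end action potentials and limit repetitive firing. Voltage-gated channels are tetramers of alpha subunits that open on depolarization, and cytoplasmic or membrane-spanning auxiliary subunits change their gating or their delivery to the membrane. Inward rectifiers pass current more readily into the cell, tandem-pore channels carry a background leak, and other families open on intracellular calcium or sodium. Methylation of CpGs at a promoter is commonly found with low transcription, whereas methylation within a transcribed gene is not. RNA was not analysed here, so every value below is a methylation level and none is an expression level.

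The potassium channel promoters covered nearly the whole range of methylation, and 5 stretches at transcript starts are printed to show which sequences lay at which level. They are 300-base windows around RefSeq transcript starts on GRCh38.p14, from 250 bases before to 50 bases after the start, written 5′ to 3′ on the strand of the gene, with every CG dinucleotide in capitals. RefSeq windows were at hand for 70 of the genes, 108 windows in all. No genome of the build of the table was at hand, so a window was tied to the measured CpGs by the spacing of its CGs alone. A match needed at least 10 measured CpGs, each falling on a CG of the window, and 27 windows of 25 genes met it. For the 5 windows printed the next best alignment matched at most 3 CpGs. KCNN2, a calcium-activated channel of small conductance, and KCNMB3, an auxiliary subunit of the calcium-activated channel of large conductance, stand for the low and the high end. KCNA3, a voltage-gated channel best known from lymphocytes, stands for a well methylated window, and KCNA4 and KCNIP2 for windows of intermediate level. The printed KCNA3 string reads as protein-coding sequence, so its level is not that of an upstream promoter. Another KCNA3 window, with 37 CGs, matched 9 measured CpGs, fewer than the 10 needed, and its level is not given.
KCNN2: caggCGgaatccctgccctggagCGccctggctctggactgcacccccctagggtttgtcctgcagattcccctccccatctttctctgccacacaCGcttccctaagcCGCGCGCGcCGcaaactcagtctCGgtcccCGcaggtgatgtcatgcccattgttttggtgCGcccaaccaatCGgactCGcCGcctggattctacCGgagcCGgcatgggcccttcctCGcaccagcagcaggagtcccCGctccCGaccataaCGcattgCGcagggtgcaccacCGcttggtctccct
KCNA4: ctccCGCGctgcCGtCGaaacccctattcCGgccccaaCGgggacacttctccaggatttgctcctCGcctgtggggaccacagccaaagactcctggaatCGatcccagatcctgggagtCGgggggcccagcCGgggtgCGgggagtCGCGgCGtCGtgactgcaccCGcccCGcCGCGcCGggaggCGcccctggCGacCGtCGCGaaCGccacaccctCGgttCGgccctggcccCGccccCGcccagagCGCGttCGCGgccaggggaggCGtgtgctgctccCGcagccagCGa
KCNIP2: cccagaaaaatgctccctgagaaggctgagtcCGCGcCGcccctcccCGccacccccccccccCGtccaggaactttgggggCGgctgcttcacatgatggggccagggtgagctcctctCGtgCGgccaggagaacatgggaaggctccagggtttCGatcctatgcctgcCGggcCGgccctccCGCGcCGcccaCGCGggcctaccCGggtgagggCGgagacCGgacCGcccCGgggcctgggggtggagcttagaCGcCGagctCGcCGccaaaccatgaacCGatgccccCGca
KCNA3: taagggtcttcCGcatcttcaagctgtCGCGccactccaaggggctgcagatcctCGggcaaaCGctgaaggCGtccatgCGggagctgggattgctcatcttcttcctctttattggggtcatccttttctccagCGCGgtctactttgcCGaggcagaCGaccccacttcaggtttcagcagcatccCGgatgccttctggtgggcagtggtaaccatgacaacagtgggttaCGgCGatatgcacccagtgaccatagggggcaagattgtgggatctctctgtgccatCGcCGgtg
KCNMB3: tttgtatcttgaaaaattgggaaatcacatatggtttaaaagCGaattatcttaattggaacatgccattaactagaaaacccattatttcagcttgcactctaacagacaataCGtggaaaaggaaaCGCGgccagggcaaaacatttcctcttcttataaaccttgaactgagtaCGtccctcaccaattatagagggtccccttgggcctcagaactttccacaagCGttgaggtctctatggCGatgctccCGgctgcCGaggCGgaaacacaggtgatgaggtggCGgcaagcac

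The KCNN2 window held 22 CGs, all measured, with a mean of 3.90% in the Mdivi-1 library and 3.33% in the control library. In the KCNA4 window 34 of 37 CGs were measured, at 31.1% in the Mdivi-1 library and 28.6% in the control library. In the KCNIP2 window 26 of 27 CGs were measured, at 46.6% and 38.2%, and 22 of the 26 were higher in the Mdivi-1 library. KCNIP2 encodes a calcium sensor that binds A-type channels, and the difference of its window, 8.40 points, was the largest in size among the 27 matched windows. The 16 CGs of the KCNA3 window averaged 73.6% in the Mdivi-1 library and 70.9% in the control library. The KCNMB3 window, with 11 CGs, stood at 96.7% and 94.3% over 10 of them. Over the 27 matched windows, windows with more CGs tended to be less methylated, with a Pearson correlation of -0.43 between CG number and level in the Mdivi-1 library and the same value in the control library. This is a description over windows that share both libraries, and 2 genes, KCNAB2 and KCNE1, gave a pair of windows each. The windows of KCNAB2, the gene of a cytoplasmic beta subunit, differed widely: the window with 31 CGs stood at 1.27% in the Mdivi-1 library and 1.34% in the control library, and the window with 18 CGs at 35.2% and 32.0%.

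Across the 90 measured promoters the median level was 21.6% in the Mdivi-1 library and 21.3% in the control library, and most promoters were neither unmethylated nor fully methylated. In the Mdivi-1 library 20 promoters lay under 10%, 56 between 10 and 50%, 7 between 50 and 80% and 7 at 80% or more. In the control library the same ranges held 21, 56, 6 and 7 promoters. The 10 to 50% range thus held 62.2% of potassium channel promoters in each library, beside 40.4% of all 22658 autosomal promoters in the Mdivi-1 library and 40.5% in the control library. Promoters under 10% made up 36.6% and 36.8% of all autosomal promoters, but 22.2% and 23.3% of the potassium channel promoters. These shares are set side by side without a test. A promoter level is a mean over CpGs that can belong to several start sites of a gene and differ among themselves.

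**Figure D1:**
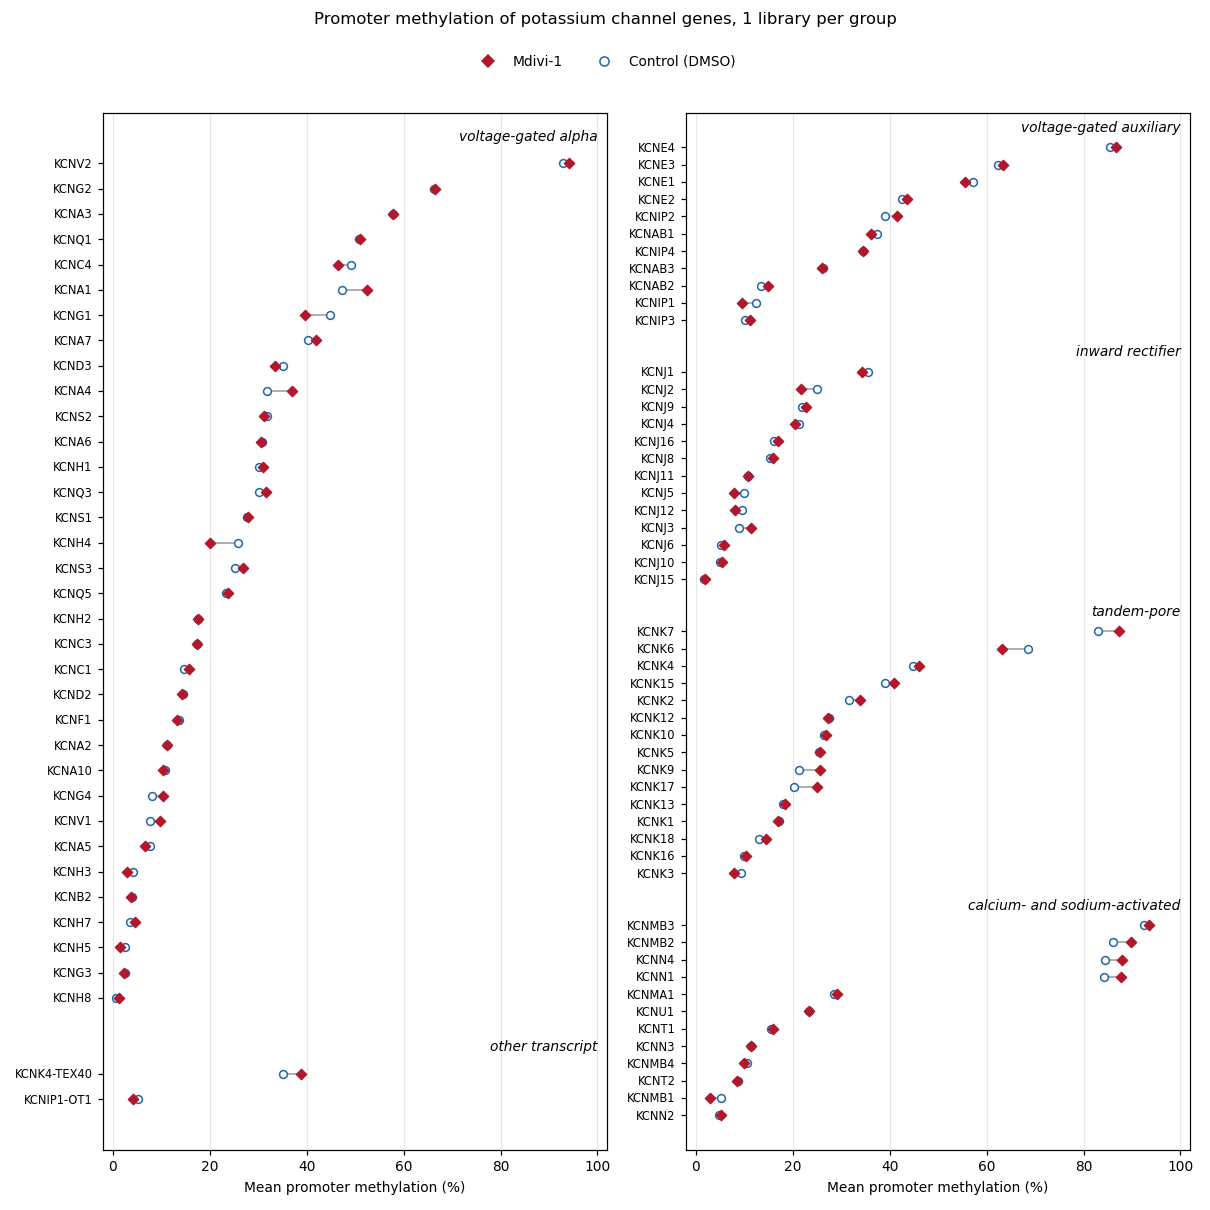
Mean promoter methylation in percent (horizontal axis) of 87 of the 90 measured potassium channel genes (vertical axis), grouped by channel class and ordered by the control level. Red diamonds are the Mdivi-1 library, open blue circles the control library and grey lines join the values of a gene. The inward rectifier promoters lie below 36% in both libraries, while 7 promoters, among them KCNV2 and KCNMB3, lie at 80% or more.

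Inward rectifier promoters were the least methylated class. Their 13 measured promoters averaged 14.1 ± 9.04% in the Mdivi-1 library and 14.3 ± 9.53% in the control library (SD over genes), and the highest, KCNJ1, a kidney channel, stood at 34.3% and 35.5%. The 37 voltage-gated alpha subunit promoters averaged 25.6 ± 20.5% and 25.3 ± 20.4%, and the 15 tandem-pore promoters 31.3 ± 21.1% and 30.3 ± 21.1%. Auxiliary subunits of voltage-gated channels averaged 38.4 ± 23.6% and 38.2 ± 23.3% over 11 promoters. The 12 calcium- and sodium-activated promoters split into separate levels, averaging 38.8 ± 38.4% and 38.0 ± 36.8%. Of these, KCNMB3, KCNMB2, KCNN4 and KCNN1 lay above 84% in both libraries, and the other 8 lay below 30%.

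The least methylated promoter was that of KCNH8, a voltage-gated channel of the brain, at 1.18% in the Mdivi-1 library and 0.613% in the control library over 45 CpGs. The 5 highest by control level follow. The most methylated was KCNV2, an electrically silent subunit of photoreceptors, at 94.1% and 92.9% over 6 CpGs. KCNMB3 followed at 93.5% and 92.5%, and KCNMB2, another beta subunit of the large-conductance channel, at 89.8% and 86.1%. KCNN4, the calcium-activated channel of intermediate conductance known from blood and epithelial cells, stood at 88.0% and 84.4%. KCNE4, a membrane-spanning auxiliary subunit, stood at 86.6% and 85.5%, and in the Mdivi-1 library KCNN1 and KCNK7 lay above it. These are levels, and the order of neighbours a few points apart is within the counting error for shared reads given below.

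Several channels known from neurons are given next, chosen for their function and not as a group. KCNH2, the gene of the hERG channel, which is also described in neuroblastoma cells, had a promoter level of 17.5% in the Mdivi-1 library and 17.7% in the control library over 74 CpGs. KCNQ3 is a subunit of the M-current channel that restrains firing, and stood at 31.6% and 30.2% over 46 CpGs. KCNQ5 carries a related current, and stood at 23.8% and 23.4%. KCND2, an A-type channel of dendrites, stood at 14.2% and 14.4%. KCNMA1, the pore of the large-conductance calcium-activated channel, stood at 29.1% and 28.6%.

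Markers of the line were read in the same way. The promoters of the sympathetic neuron regulators GATA3, HAND2, ISL1 and GATA2 and of DBH, an enzyme of noradrenaline synthesis, lay below 3% in both libraries. TH, the first enzyme of catecholamine synthesis, lay at 54.5% in the Mdivi-1 library and 53.7% in the control library. The epithelial genes EPCAM and CDH1 stood at 88.5% and 90.3%, and at 72.9% and 71.2%. Promoter methylation does not measure expression, so this does not check the cell type beyond these levels.

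The comparison of Mdivi-1 with control asked whether methylation of these genes differed between the libraries. No potassium channel promoter and no gene body met the rule of size used here, which requires a mean difference of at least 10 points with at least 80% of the CpGs in its direction. That is 0 of 90 promoters, beside 0.243% of all autosomal promoters, and 0 of 94 gene bodies, beside 0.144% of all autosomal gene bodies. Promoter differences, Mdivi-1 minus control, ran between -5.87 and 5.16 points with a median of 0.361, beside a median of 0.198 over all autosomal promoters. With at least 20 reads the potassium channel median was 0.158 points. Gene body differences ran between -7.25 and 3.97 points with a median of 0.653, beside 0.422 over all autosomal gene bodies. Mdivi-1 had the higher level at 54 of 90 promoters, beside 58.3% of all autosomal promoters, and at 66 of 94 gene bodies, beside 66.6%.

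Each difference was set against counting errors of 2 kinds. The first treats CpGs as independent, with a median of 1.40 points over the potassium channel promoters. The second treats every read as covering all CpGs of the region, with a median of 8.40 points. Neighbouring CpGs share some reads, which the first kind leaves out. Copies made by PCR are left out of both kinds, so the second is not a firm upper limit. Beyond 1.96 errors of the first kind lay 11 promoters, beside 11.6% of all autosomal promoters. Among them, KCNA4, KCNA1, KCNJ3, KCNK2, KCNS3 and KCNAB2 were higher in the Mdivi-1 library, and KCNH4, KCNG1, KCNJ2 and KCNJ5 were lower. Beyond the second kind lay 0 promoters and 0 gene bodies, and likewise 0% of all autosomal promoters and gene bodies. The shares of potassium channel promoters outside each bound were thus near those of the whole table.

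**Figure D2:**
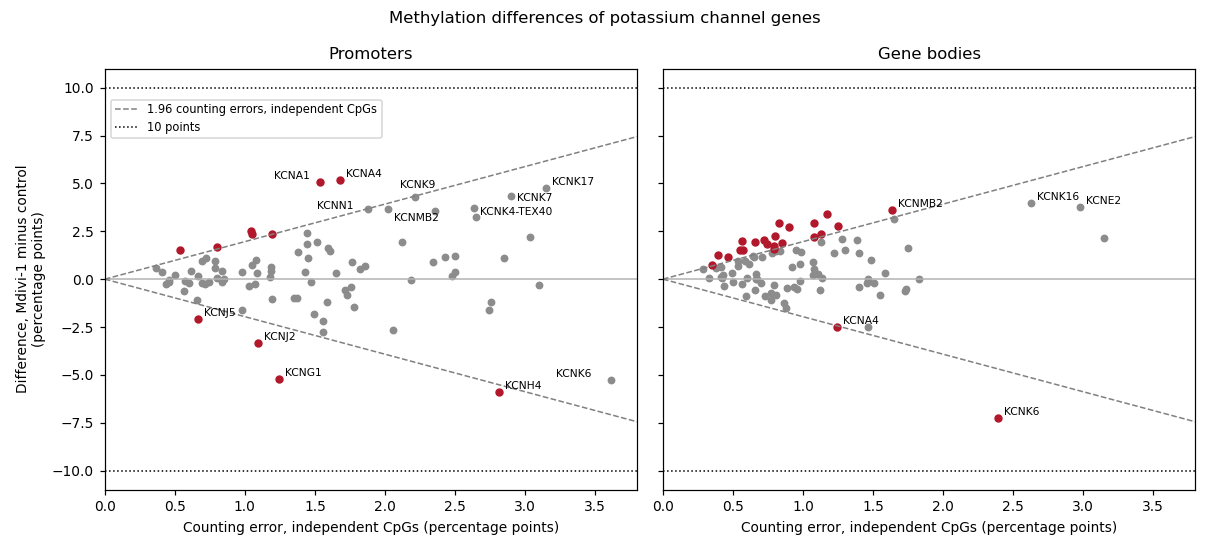
Difference in mean methylation, Mdivi-1 minus control, in percentage points (vertical axis) against its counting error for independent CpGs (horizontal axis), for 90 promoters (left) and 94 gene bodies (right). Red points lie beyond the dashed lines at 1.96 errors, grey points within them, and dotted lines mark 10 points. Every point lies between the dotted lines, and KCNK6 is the lowest gene body at -7.25 points.

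Among the promoters with a higher level in the Mdivi-1 library, voltage-gated alpha subunits had the largest differences. KCNA4 encodes a fast inactivating A-type subunit, and its promoter stood at 37.1% in the Mdivi-1 library and 31.9% in the control library. The difference was 5.16 points over 60 CpGs, 37 of them higher, with errors of 1.68 and 13.7 points. KCNA1, a channel of axons whose mutations cause episodic ataxia, stood at 52.4% and 47.3%, a difference of 5.08 points over 39 CpGs, with errors of 1.54 and 9.67 points. The next in order were tandem-pore leak channels, all within 1.96 of their errors for independent CpGs. KCNK17, an alkaline-activated channel, stood at 24.99% and 20.2% over 10 CpGs, and KCNK7, for which no current of its own is known, at 87.3% and 82.9% over 12 CpGs. KCNK9, an acid-sensitive channel of neurons, stood at 25.7% and 21.4% over 29 CpGs. For some of these the choice of CpGs decided the value: with at least 20 reads KCNA4 came to 1.32 points and KCNK7 to -3.58 points, and with reads pooled over CpGs KCNK17 came to -0.981 points.

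Among the promoters with a lower level, KCNH4, a slowly activating voltage-gated channel of the brain, had the largest difference. It stood at 20.03% in the Mdivi-1 library and 25.9% in the control library, a difference of -5.87 points over 12 CpGs with errors of 2.81 and 14.0 points. Pooling its reads gave -13.3 points, and its control coverage averaged 14.2 reads. KCNK6, a weakly rectifying tandem-pore channel, stood at 63.2% and 68.5%, a difference of -5.28 points over 13 CpGs. KCNG1 encodes a modifier subunit that forms no channel alone, and stood at 39.7% and 44.9%. Its difference of -5.21 points rested on 59 CpGs, 38 of them lower, with errors of 1.25 and 9.44 points, and was -3.43 points with pooled reads. KCNJ2, an inward rectifier that holds the resting potential of muscle, stood at 21.7% and 24.99%, a difference of -3.33 points over 57 CpGs. KCNIP1, a calcium sensor bound to A-type channels, stood at 9.63% and 12.4%, a difference of -2.75 points over 21 CpGs, and of -0.682 points with pooled reads.

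A list of 20 channels was followed whatever their difference. Of its promoters 14 were higher and 6 lower in the Mdivi-1 library, with a median difference of 0.447 points. Over all autosomal promoters 58.3% were higher. KCNJ3, a subunit of the G protein-gated inward rectifier, stood at 11.4% and 8.84%, and its partner KCNJ6 at 5.75% and 5.15%. The KCNJ3 difference was 2.53 points over 49 CpGs, 22 higher and 6 lower, and 5.04 points with at least 20 reads. KCNK2, a mechanosensitive leak channel, stood at 33.9% and 31.5%, a difference of 2.34 points, and 0.857 points with pooled reads. KCNJ11 and KCNJ8 form the pores of channels closed by ATP, which tie excitability to metabolism. They stood at 10.7% and 10.9%, and at 16.0% and 15.3%. KCNK3, an acid-sensitive leak channel, stood at 7.90% and 9.38%, and KCNA5, a channel of the atrium, at 6.71% and 7.67%. KCNN3, a small-conductance calcium-activated channel, stood at 11.4% and 11.5%. Over the 160 CpGs annotated to its promoter, which include exonic CpGs, KCNA3 stood at 57.8% in each library. The difference was 0.0347 points, and 2.89 points with pooled reads.

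Gene bodies were more methylated than promoters in most genes. The gene body level was above the promoter level in 67 of 88 genes in the Mdivi-1 library and in 65 of 88 in the control library. The median body level was 41.7% in the Mdivi-1 library and 41.6% in the control library. The widest contrast was at KCNG3, a modifier subunit like KCNG1: its promoter stood at 2.30% in the Mdivi-1 library and 2.55% in the control library over 71 CpGs, and its gene body at 95.7% and 95.1% over 121 CpGs. KCNK2 showed the opposite order, with a promoter at 33.9% and 31.5% and a gene body at 8.70% and 7.56%. The differences of promoter and gene body bore little relation to each other across the 88 genes, with a Pearson correlation of 0.0907. Both were higher in the Mdivi-1 library in 39 genes and both lower in 12. In 13 the promoter was higher and the body lower, and in 24 the promoter was lower and the body higher.

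**Figure D3:**
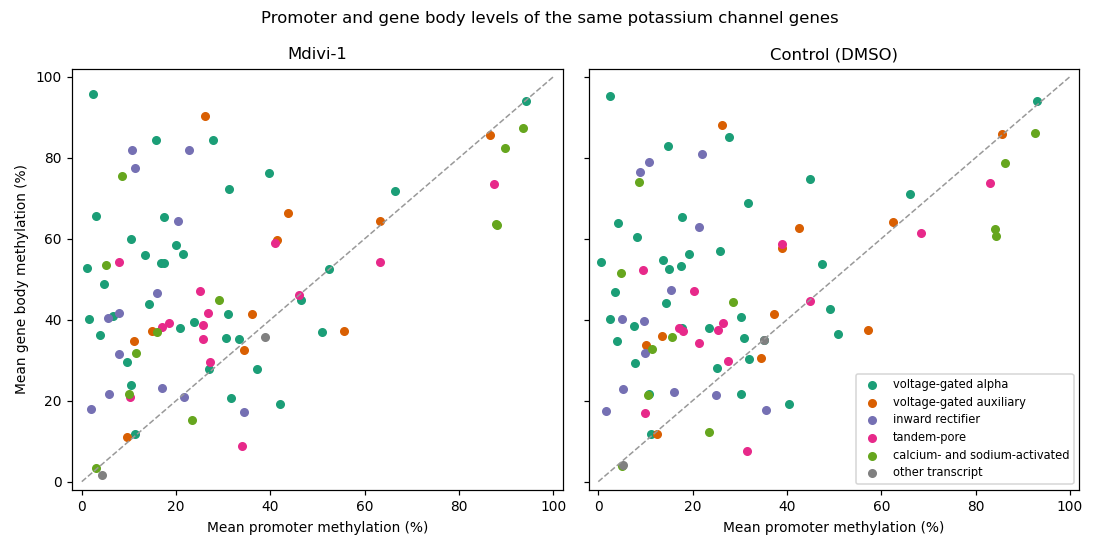
Mean gene body methylation (vertical axis) against mean promoter methylation (horizontal axis), both in percent, for the 88 potassium channel genes measured in both, in the Mdivi-1 library (left) and the control library (right). Colours mark the channel class and the dashed line marks equal levels. Points lie above the line for 67 genes in the Mdivi-1 library and 65 in the control library.

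The gene body of KCNK6 had the largest difference of any potassium channel promoter or gene body. It stood at 54.1% in the Mdivi-1 library and 61.4% in the control library, a difference of -7.25 points over 32 CpGs with errors of 2.39 and 13.6 points. Of these CpGs 23 were lower, and the run of 15 lower CpGs at its start, which spans 121 bases, averaged 46.8% and 66.8%. The other 17 averaged 60.6% and 56.6%. The 1 kb window at chr19:38810163-38810996, which holds the promoter CpGs and the first CpGs of the gene body, stood at 56.4% and 67.5% over 33 CpGs. Its difference of -11.1 points was past 10 points, with 26 of 33 CpGs lower, just short of the required share. With a minimum of 5 reads the body reached -17.0 points over 56 CpGs and the window -19.0 points over 57 CpGs, and both then met the rule. No share of all autosomal gene bodies or windows at 5 reads stands beside this. The body difference was -6.59 points over 22 CpGs with at least 20 reads and -6.74 points with pooled reads, and it met the rule in neither setting.

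Other gene bodies with lower levels had smaller differences. KCNA4, whose promoter was higher, had a gene body at 27.9% in the Mdivi-1 library and 30.4% in the control library, a difference of -2.48 points over 54 CpGs with errors of 1.25 and 10.5 points. With at least 20 reads a window of KCNA4 at chr11:30038014-30038848 stood at 24.04% in the Mdivi-1 library and 35.8% in the control library over 16 CpGs and met the rule of size. This window mixes CpGs of the body, which reach 30038573, with CpGs of the promoter, which begin at 30038600 in genome order. The promoter run that was higher in the Mdivi-1 library, described below, falls out at 20 reads. KCNIP1-OT1 stood at 1.72% and 4.21% over 8 CpGs, and 23 CpGs of this transcript are also annotated to KCNMB1. KCNH8 stood at 52.8% and 54.3%, a difference of -1.49 points that was -0.895 points with at least 20 reads, and KCNA1 at 52.6% and 53.8%.

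Higher gene body levels were spread over several classes. KCNK16, a tandem-pore channel of pancreatic beta cells, stood at 20.8% in the Mdivi-1 library and 16.9% in the control library, over 12 CpGs of which 10 also lie in the promoter of its neighbour KCNK17. Its difference of 3.97 points was -0.0923 points with at least 20 reads and 0.736 points with pooled reads. KCNE2, an auxiliary subunit known from heart and stomach, stood at 66.4% and 62.6% over 11 CpGs, a difference of 3.77 points that was -0.644 points with pooled reads. KCNMB2 stood at 82.3% and 78.7% over 19 CpGs, a difference of 3.61 points, and 1.75 points with pooled reads. KCNU1, the pH-sensitive channel of sperm, stood at 15.3% and 12.2% over 14 CpGs, a difference of 3.13 points, and 1.73 points with pooled reads. KCNS2 encodes a modifier subunit and stood at 72.3% and 68.9%, a difference of 3.40 points over 63 CpGs, with errors of 1.17 and 9.19 points. The KCNS2 difference was 1.31 points with at least 20 reads and 1.61 points with pooled reads. Beyond 1.96 errors for independent CpGs lay 23 of 94 gene bodies, 21 higher and 2 lower, beside 17.5% of all autosomal gene bodies. The 2 lower ones were KCNK6 and KCNA4.

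**Figure D4:**
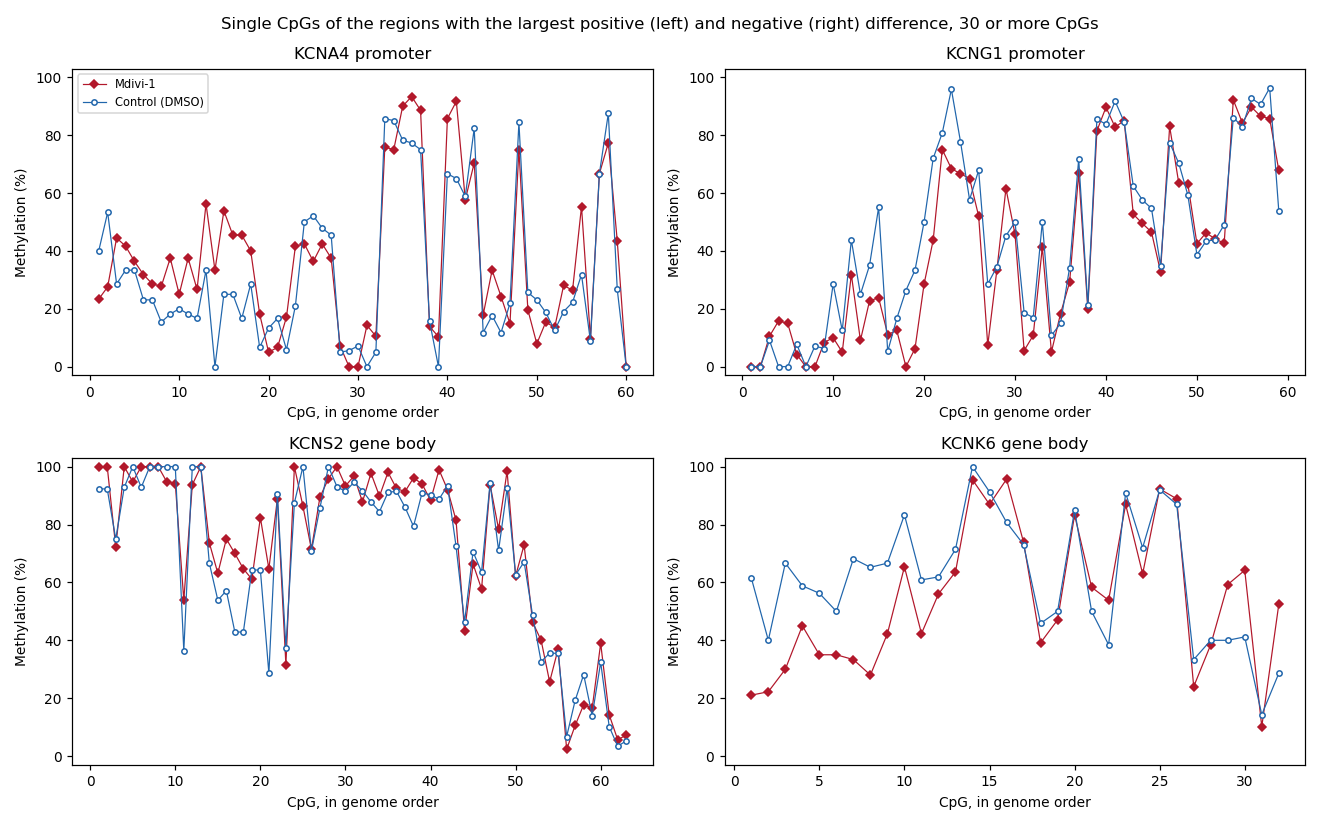
Methylation in percent (vertical axis) of each CpG in genome order (horizontal axis) for the promoters of KCNA4 and KCNG1 (top) and the gene bodies of KCNS2 and KCNK6 (bottom), the regions of 30 or more CpGs with the largest differences. Red diamonds are the Mdivi-1 library and open blue circles the control library. At KCNA4 CpGs 3 to 19 are all higher in the Mdivi-1 library, and at KCNK6 CpGs 1 to 15 are all lower, while the rest of each region crosses over. Each of KCNA4 CpGs 3 to 19 has between 10 and 15 control reads.

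Single CpGs showed how the differences were spread along 3 of these regions. At the KCNA4 promoter 17 neighbouring CpGs within 91 bases averaged 37.0% in the Mdivi-1 library and 21.5% in the control library, and the other 43 averaged 37.1% and 36.0%. These 17 CpGs had 10 to 15 reads each in the control library, so none of them enters with a minimum of 20 reads. At the KCNG1 promoter 8 neighbouring CpGs within 47 bases averaged 37.6% and 56.6%, and the other 51 averaged 40.0% and 43.1%. These 8 CpGs had 14 to 19 reads each in the Mdivi-1 library, so they too fall out at 20 reads. The KCNG1 promoter difference was then -3.87 points over 38 CpGs. At the KCNS2 gene body the longest run held 7 CpGs, at 94.2% and 87.3%, and the other 56 averaged 69.6% and 66.6%, so most of that difference lay outside the run. These runs were picked as the longest in the direction of the region, so their values are a description, and CpGs this close share reads.

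Among the bodies of the followed list, 19 were measured, 14 higher and 5 lower in the Mdivi-1 library, with a median difference of 0.716 points. Over all autosomal gene bodies 66.6% were higher. The 5 lower ones were KCNJ6 at -1.10 points, KCNN3 at -0.878, KCNQ3 at -0.876, KCNJ8 at -0.839 and KCND2 at -0.249 points. KCND2 came to 2.43 points with pooled reads. KCNJ11 stood at 82.0% and 79.0%, a difference of 2.93 points over 68 CpGs with errors of 0.832 and 8.93 points, and 5.70 points with pooled reads. KCNN2 stood at 53.5% and 51.6% and KCNK3 at 54.1% and 52.1%, with differences of 1.92 and 1.97 points, though KCNK3 came to -0.432 points with pooled reads. KCNA5 stood at 40.9% and 38.5%. The body with the most measured CpGs, KCNQ1 with 1102, stood at 37.0% and 36.4%. KCNH2 stood at 65.3% in each library over 270 CpGs.

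Shorter stretches were read in fixed windows of 1 kb. Of 742 windows with 5 or more potassium channel CpGs, 3 met the rule of size, which is 0.404%, beside 0.874% of all 120155 autosomal windows. The largest difference lay in KCNK10, a mechanosensitive leak channel related to KCNK2, at chr14:88792011-88792996 in its 5′ untranslated exons outside the promoter. This window stood at 39.9% in the Mdivi-1 library and 26.8% in the control library, 14 of 15 CpGs were higher, and the difference was 13.1 points with errors of 4.11 and 16.0 points. Its coverage averaged 15.8 reads in the Mdivi-1 library and 19.0 reads in the control library, well below the mean of the family. An intron of KCNG1, at chr20:49625326-49625541, stood at 76.0% and 64.1% over 5 CpGs. An intron of KCNMA1, at chr10:79270627-79270790, stood at 33.5% and 44.3%, with all 5 CpGs lower. Coordinates are hg19 positions. None of the 742 windows lay beyond 1.96 errors for fully shared reads, beside 0.00749% of all autosomal windows.

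Further windows came close to the rule. A window in an intron of KCNJ12, a strong inward rectifier, at chr17:21300683-21300862, stood at 30.1% in the Mdivi-1 library and 20.3% in the control library over 16 CpGs, of which 12 were higher. KCNJ12 has a near-identical copy in the genome, so reads of the copies may be mixed there. In KCNJ5, a cardiac partner of KCNJ3, a window in an intron at chr11:128773714-128773860 stood at 9.86% and 19.1% over 6 CpGs.

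No single CpG of the potassium channel genes was called by Fisher's exact test, two-sided, with Benjamini-Hochberg adjustment over all 2523693 CpGs and a difference of at least 20 points. That is 0 of 15477, beside 16 CpGs or 0.000634% in the whole table, and the smallest adjusted p was 1. At an unadjusted p under 0.05 with 20 points there were 174 CpGs, 101 higher and 73 lower in the Mdivi-1 library, or 1.12%, beside 0.843% of all CpGs. CpGs with a level between 20 and 80%, where such differences are possible in either direction, made up 31.0% of the potassium channel CpGs and 19.6% of all CpGs. Within that range the share was 2.69% for the potassium channel genes and 3.15% for all CpGs. KCNQ1 held 19 of the 174, out of its 1157 measured CpGs, and KCNK6 held 5 out of 45. The test compares the reads of 2 libraries and not the conditions.

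The smallest unadjusted p, 0.00027, belonged to an exonic CpG of KCNJ12 with 140 of 214 reads methylated in the Mdivi-1 library and 85 of 100 in the control library, subject to the same doubt about its copy. An exonic CpG of KCNJ11 was methylated in 52 of 52 reads in the Mdivi-1 library and 30 of 38 in the control library. A CpG in the 3′ untranslated region of KCNK12, a tandem-pore channel that is silent in most test systems, had 3 of 18 and 14 of 19 methylated reads. An intronic CpG of KCNS3, a modifier subunit, had 0 of 35 and 8 of 29, and an intronic CpG of KCNQ1 had 9 of 54 and 22 of 46. The direction was thus mixed among the CpGs of smallest p.

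CpG islands inside the gene bodies set the potassium channel genes beside the rest of the table in another way. By the class that the authors deposited for each CpG, island CpGs of potassium channel bodies averaged 54.3% in the Mdivi-1 library and 53.7% in the control library over 5047 CpGs. CpGs outside islands, shores and shelves averaged 40.1% and 39.2% over 2817 CpGs. Over all autosomal gene bodies the order was the reverse, with islands at 33.3% and 33.0% and CpGs outside them at 64.8% and 64.1%. Gene by gene, the island level was above the outside level in 27 of 44 potassium channel genes with 5 CpGs of each kind, 61.4% in each library, beside 20.6% and 20.8% of 7674 autosomal genes. KCNN4 had island CpGs at 78.4% and 73.7% and outside CpGs at 8.85% and 9.85%. KCNMB4, a neuronal beta subunit of the large-conductance channel, was the reverse, with island CpGs at 0.952% and 1.16% and outside CpGs at 91.5% and 90.3%. Glutamate and GABA receptor genes, another group of neuronal membrane proteins, had 12 of 19 genes with the island level above the outside level in each library. The partner genes described below had 13 of 26 in the Mdivi-1 library and 12 of 26 in the control library. The contrast was not tested, and the deposited class can miss CpG-dense sequence: none of the 60 promoter CpGs of KCNA4 is classed as island, although its printed window holds 37 CGs.

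The capital CGs printed above give the density behind these classes. The KCNA4, KCNIP2 and KCNN2 windows have a GC content of 73.3%, 71.3% and 64.7%, and the KCNMB3 window 45.3%. As many CGs as in the KCNA4 window were found in 11.3% of all 35116 RefSeq windows, and as many as in the KCNMB3 window in 54.7%.

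KCNQ1, the voltage-gated channel of heart and inner ear, contains the start of the imprinted non-coding transcript KCNQ1OT1, whose promoter is normally methylated on the maternal copy alone. That promoter is not counted as a potassium channel promoter, but all its 76 measured CpGs are also annotated to the body of KCNQ1. It stood at 37.6% in the Mdivi-1 library and 38.8% in the control library, a difference of -1.11 points with errors of 1.63 and 13.2 points. The promoter of KCNQ1 itself stood at 50.9% and 50.8% over 55 CpGs, and at -3.71 points with pooled reads. Along the gene, bins of 5 kb ran between 1.81% and 74.6% in the Mdivi-1 library and between 1.97% and 76.1% in the control library. The lowest bin lay 7.5 kb from the centre of the KCNQ1OT1 promoter. The largest differences were 6.20 points over 13 CpGs and -5.81 points over 5 CpGs, in bins on either side of it.

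**Figure D5:**
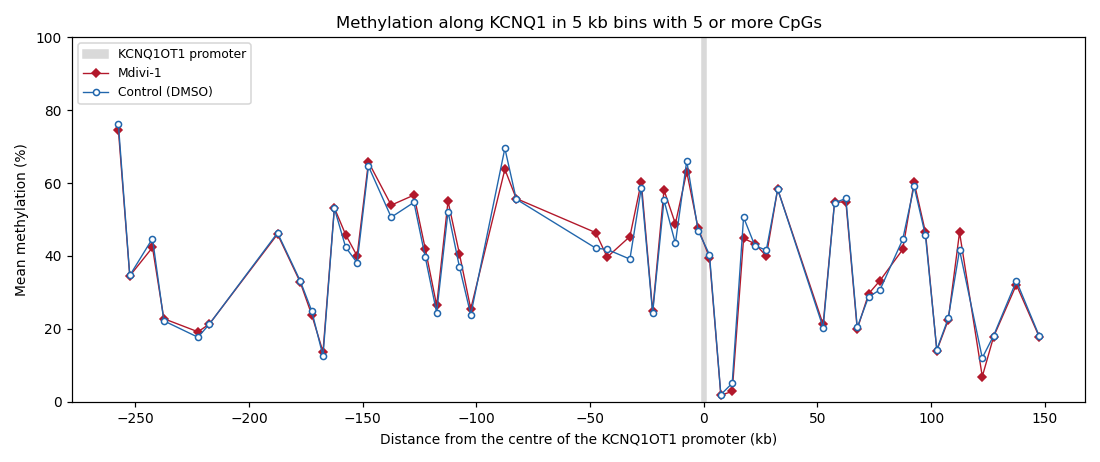
Mean methylation in percent (vertical axis) of 5 kb bins along KCNQ1 with 5 or more CpGs, against distance in kb from the centre of the KCNQ1OT1 promoter (horizontal axis), which the grey band marks. Red diamonds are the Mdivi-1 library and open blue circles the control library. Both lines follow each other along the gene, and the lowest bin, at 1.81% and 1.97%, lies beside the promoter.

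Genes that act with the potassium channels were read from a list of 51 partner genes, among them other channel subunits, sodium and calcium channels and ion pumps. Of its 46 measured promoters 22 were higher and 24 lower in the Mdivi-1 library, with a median difference of -0.054 points, and 1 met the rule of size. It was SCN9A, a sodium channel of sensory and sympathetic neurons, at 45.3% in the Mdivi-1 library and 32.9% in the control library over 10 CpGs. ABCC8, the sulfonylurea receptor that joins KCNJ11 in the ATP-closed channel, stood at 45.0% and 37.8% over 20 CpGs, 16 of them higher, a difference of 7.18 points. DPP6, an accessory protein of A-type channels, stood at 29.4% and 27.1%. Of 51 measured partner gene bodies 35 were higher and 16 lower, with a median difference of 0.347 points. The glutamate and GABA receptor genes had 27 promoters higher and 12 lower of 40, with a median difference of 0.497 points, and 0 met the rule. The medians of the potassium channel promoters, 0.361 points, and gene bodies, 0.653 points, were not tested against either list.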

How the data were processed

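Methyl-capture bisulfite libraries of SH-SY5Y cells, 1 exposed to Mdivi-1 and 1 to DMSO, were analysed from a table of 2773807 positions. The submitters' processing notes name BSMAP and hg19. For each position the authors deposited a methylated fraction and a coverage per library. The deposited coverages are treated as estimated counts, since some are not whole. The Mdivi-1 fractions are whole reads over coverage. The control fractions are whole at 33.3% of positions only (tolerance 1e-06), but fit whole reads once coverage is multiplied by 1.23, which is 37 over 30, the median coverages of the Mdivi-1 and control libraries. Methylated reads were recovered through this relation, which is read from the values, and 10795 positions (0.389%) could not be used, 10751 because their coverage was fractional. Promoter, gene and island annotation is that of the deposited table.

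A CpG entered with 10 or more reads in each library. Levels are means over CpGs. A gene body is every non-intergenic row that names the gene outside its own promoter. Of the potassium channel CpGs, 1415 (9.14%) are also annotated to other genes, and 108 are the opposite strand of a measured CpG. Named were the 5 largest differences in each direction, windows that met the rule of size, the 5 highest promoters by control level and a fixed list, plus examples chosen after their values were seen (KCNG3, KCNN1, KCNN4 and KCNMB4 bodies, runs of CpGs, windows close to the rule, CpGs of smallest p, partner genes). The members and lists were chosen with earlier results of these data known. The scripts were tested on simulated data. RNA-seq was not analysed here, and some genes are not reported by name here. Alternatives tried were other coverage minimums, pooled reads, deposited fractions, other CpG numbers and sizes of difference, and rows that name only 1 gene. Software was pandas 2.3.3 and NumPy 2.4.6 under Python 3.11.15, with Numba 0.67.0 and SciPy 1.17.1 for the tests and Matplotlib 3.10.9 for the figures.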

Additional observations from a re-analysis of the deposited data

How the results depend on the processing

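The number of potassium channel promoters that met the rule of size was 0 in every alternative run, and the median promoter difference lay between 0.158 and 0.519 points. Gene bodies met it in 1 case, KCNK6, with a minimum of 5 reads. The median gene body difference of 0.653 points was 0.366 points with pooled reads. The 3 of 742 windows became 5 of 629 with a minimum of 20 reads and 5 of 776 with a minimum of 5 reads. They became 1 of 458 with at least 10 CpGs and 28 of 742 with a difference of at least 5 points. With 20 reads the windows were those of KCNMA1, KCNA4, KCNJ12, KCNIP4 and KCNK9, and with 5 reads KCNMA1, KCNK10, KCNK6, KCNG1 and KCNQ5. Shares over all autosomal windows and gene bodies are given for the main setting alone, so these counts have no such share beside them. Fisher's exact test called 0 CpGs with adjustment, and 174 at an unadjusted p under 0.05 with 20 points. Pooling reads turned the direction of 5 of 34 named promoters and 7 of 29 named gene bodies. A minimum of 20 reads turned 7 of 33 and 3 of 29, and the deposited fractions turned 4 of 34 and 1 of 29. The cause was not tested. No paired analysis was possible because each group holds 1 library. Coverage averaged 47.1 reads in the Mdivi-1 library and 38.5 reads in the control library over these genes, and the library with fewer reads at a region limits its precision.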
